A study of Mesocricetus auratus with 8 samples.

Results

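The genes described are 40 genes of autophagy and mitophagy, picked by symbol for the step each serves: 5 of the initiation kinase complex, 5 of the class III PI3-kinase complexes, 6 of membrane supply and phosphoinositide binding, 7 of the conjugation machinery, 5 encoding LC3 and GABARAP proteins, 4 soluble cargo receptors, 4 mitophagy receptors or kinases, 2 lysosomal transcription factors and 2 lysosomal membrane proteins. Of these, 39 had values under their symbol in the deposited table, among 17590 genes with values, and Gabarap was not analysed here. All 39 had enough counts to be tested, among 12506 tested genes. The transcripts came from primary satellite cells (SCs), the stem cells of skeletal muscle, taken from the hindlimbs of sexually mature wild-type male Syrian hamsters, a species that hibernates, and enriched by repeated preplating, which is meant to take out fibroblasts. Growth medium was DMEM with fetal bovine serum, chick embryo extract and basic fibroblast growth factor. The cold group held 4 libraries of SCs kept for 48 h at 37°C in that medium, for 24 h at 37°C in the medium with added HEPES buffer, and then for 24 h at 4°C without a change of medium. The control group held 4 libraries of SCs kept at 37°C, and by the scheme in the study's legend their RNA was taken at the end of the HEPES step, before the cold. The comparison asks how transcripts of hamster SCs stand after 24 h of cold exposure. The titles of the control libraries place all 4 on day 3, which is the time that scheme gives, while their treatment label, which names no HEPES, counts 3, 4, 5 and 6 days at 37°C over replicates 1 to 4. By scheme and titles no control stayed at 37°C through the hours that the cold group spent at 4°C, so cold and the added time in culture cannot be told apart.

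Macroautophagy wraps cytoplasm in a double membrane and delivers it to the lysosome. The ULK kinase complex starts the process, a class III PI3-kinase complex marks the growing membrane with a phosphoinositide lipid, ATG9 vesicles and lipid transfer proteins feed it, and a ubiquitin-like conjugation system attaches LC3 and GABARAP proteins to it. Cargo receptors bind these proteins, and in mitophagy receptors on the mitochondrial surface, or the PINK1 kinase, mark mitochondria for the same fate. In muscle stem cells autophagy is known as a support of quiescence and of activation. Much of its control acts on proteins, and the values here are mRNA levels only, so neither autophagic flux nor LC3 lipidation was measured.

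Libraries held between 16530747 and 18533801 expected counts. Replicates 1 and 2 lay apart from 3 and 4 on the first principal component (54.5% of the variance), whether control or cold, and cold lay apart from control on the second (17.9%). Libraries of one number deviated together, as did, less closely, those of different numbers on the same side, so cold was also compared with control within each number, in an edgeR fit that took the number as a block, and its values are given beside the unblocked ones. The myogenic markers were high (Myod1 between 424 and 694 TPM, Des between 724 and 924 TPM). With the block in edgeR 4 of 7, Myod1, Myog, Cdh15 and Itga7, were lower in cold. Without it 0 of 7 passed the test (adjusted p from 0.797 to 0.999). With the block, DESeq2 called Myod1 (adjusted p = 0.009) and limma did not (adjusted p = 0.144). Myog, the myogenin transcript, had a log2 fold change of −0.71 with the block (adjusted p = 2.96e-09, edgeR's quasi-likelihood test) and of −0.74 without it (adjusted p = 0.824). Pax7, a marker of uncommitted SCs, and Myf5 both had 0.08 with the block and did not pass the test. Within replicates 1 and 2 alone the blocked edgeR fit put Myf5 at 0.14 (adjusted p = 0.0476) and Des at −0.27 (adjusted p = 3.23e-13). Within replicates 3 and 4 alone it put them at 0.02 (adjusted p = 0.96) and 0.08 (adjusted p = 0.584). None of 8 fibroblast markers passed an adjusted p of 0.05 over the 8 libraries in either edgeR fit, and within replicates 1 and 2 alone Col1a1, a collagen chain, had −0.17 (adjusted p = 4.29e-05). Their summed level ran from 1218 to 1747 TPM in control and from 1204 to 1695 TPM in cold libraries, and it was higher in replicates 3 and 4 than in replicates 1 and 2 in both groups. Endothelial markers summed to at most 3.87 TPM, Schwann cell markers to at most 2.77 TPM and adipocyte markers to at most 0.51 TPM. Among 5 leukocyte markers, Ptprc, Adgre1 and Itgam were at or below 0.1 TPM in all libraries and Cd68, which other cells with lysosomes also express, reached 52 TPM, while Csf1r ran from 2.31 to 4.55 TPM. In these bulk samples, fewer cells of a type and less RNA per cell cannot be told apart.

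Every step of the pathway was represented by transcripts in control SCs and in cold SCs alike. TPM is a scale corrected for gene length and relative to the total of each library. On it 30 of the 39 genes had a mean over the 8 libraries of at least 10, 6 of them at least 100, and 3 were under 5. Lamp1 (307 TPM), the main glycoprotein of the lysosomal membrane, stood at the top, followed by Sqstm1 (184 TPM), which encodes the cargo receptor p62, and by Gabarapl2 (162 TPM), one of the proteins coupled to the autophagosome membrane. Pink1 (1.06 TPM) was the lowest, 290.2-fold below Lamp1, followed by Tfeb (3.23 TPM) and Atg14 (3.48 TPM). Each of the 39 genes varied by less than 2-fold between its lowest and its highest library, with the widest ratio, 1.92, for Pink1.

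**Figure D1:**
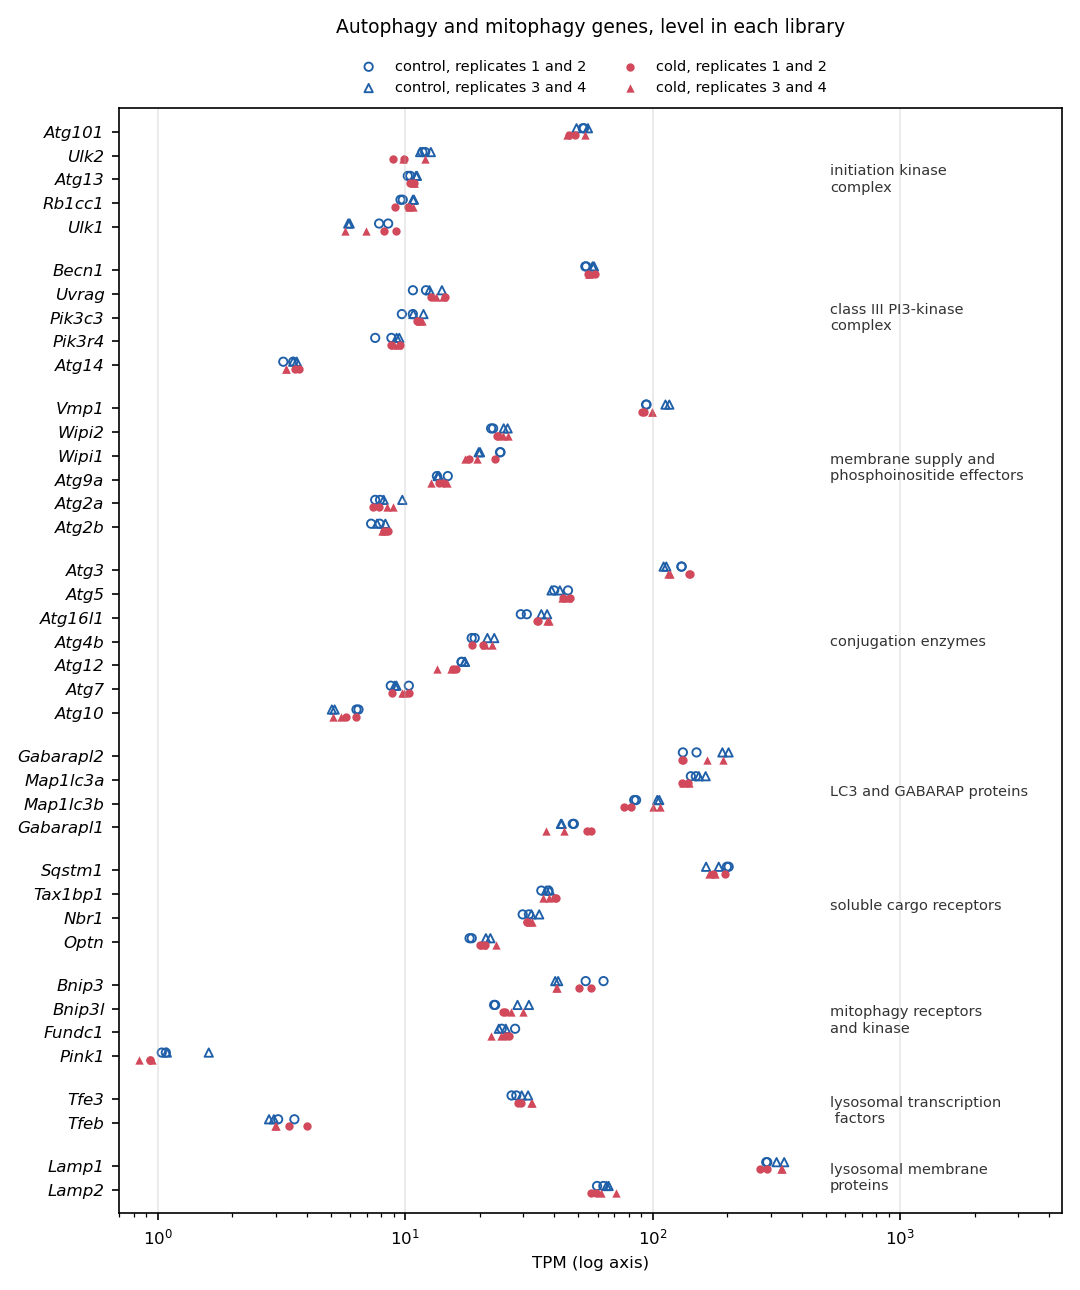
TPM (log axis) of the 39 autophagy and mitophagy genes in each of the 8 libraries, grouped by step; open blue marks are control and filled red marks cold libraries, circles are replicates 1 and 2 and triangles replicates 3 and 4. Levels run from about 1 TPM for Pink1 to about 307 TPM for Lamp1, and control and cold marks lie side by side for nearly all genes.

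After 24 h at 4°C, transcripts of the autophagy machinery stood close to their level at 37°C, relative to the other mRNA of each library. A change in total mRNA per cell would not show in these values. In the unblocked edgeR quasi-likelihood test, 0 of the 39 genes passed an adjusted p of 0.05 in either direction (Benjamini-Hochberg over all 12506 genes), where 0.072% of all tested genes were lower and 0% higher. At an unadjusted p under 0.05, 4 of the 39 were lower, a larger share than the 4.13% of all genes, and 0 higher, beside 2.57%. DESeq2 also called 0 members at its adjusted p of 0.05 (0.924% of all genes lower, 0.0209% higher), and at the unadjusted one 4 lower and 0 higher (3.63% and 1.68% of all genes). With the replicate block, edgeR gave 2 of the 39 genes lower, Ulk2 and Map1lc3a, and 0 higher. Over all tested genes 4.07% were lower and 1.26% higher, so at this cut the members' share was near the background. At an unadjusted p under 0.05 that fit gave 8 of the 39 lower, a larger share than the 9.76% of all genes, and 2 higher, beside 8.48%. Whether the members differ from all genes was not tested. DESeq2 with the block called 0 members (2.23% of all genes lower, 0.256% higher). No member reached a 2-fold change, which together with an adjusted p under 0.05 was met by 0.04% of all genes, lower, without and by 0.808% with the block.

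Same-numbered pairs were also compared. TPM was lower in cold in 4 of 4 pairs for 7 of the 39 members, a larger share than the 10.5% of all tested genes. These were Ulk2, Atg101, Wipi1, Vmp1, Atg12, Map1lc3a and Pink1. TPM was higher in 4 of 4 pairs for 4 members, Atg3, Atg5, Atg16l1 and Tfe3, beside 12.8%. Summed over the members, TPM was 1823, 1781, 1914 and 1918 in control replicates 1 to 4. In cold replicates 1 to 4 the sum was 1796, 1751, 1893 and 1819 TPM.

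The intervals were narrow. The 95% interval of the fold change held no value beyond a 2-fold change in either direction for all 39 genes in both fits, as for 92.9% of all tested genes without and 97% with the block. For 38 of the 39 it held none beyond a 1.5-fold change, beside 79.1% and 88.5% of all genes, the exception being Pink1. The median log2 fold change was −0.02 over the members and 0.01 over all tested genes, and the median size of the change, without its sign, was 0.06 and 0.07. Fitted changes ran from −0.41 for Pink1 to 0.14 for Uvrag.

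**Figure D2:**
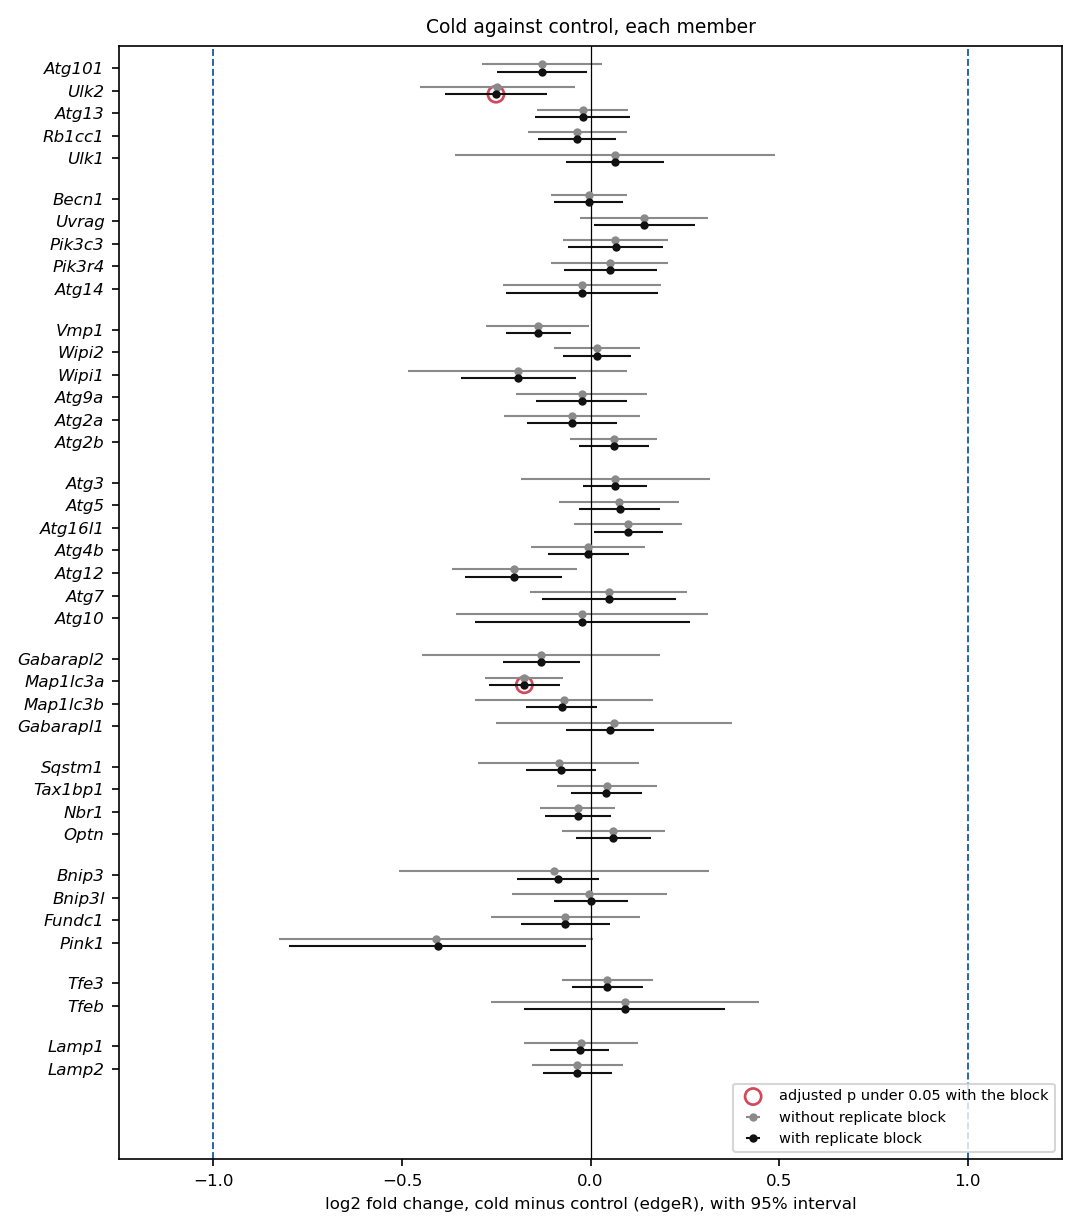
Log2 fold change of cold against control for each of the 39 genes, with its 95% interval, from edgeR without (grey) and with (black) the replicate block; dashed lines mark 2-fold changes. No interval reaches a dashed line, and red circles mark Ulk2 and Map1lc3a, the 2 genes with an adjusted p under 0.05 in the blocked fit.

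Of the initiation kinase complex, Ulk2 fell in the blocked fit and the other members did not pass the test. Ulk2 (gene 101833225), one of the paired kinases that start autophagosome formation, stood at 12.1, 11.8, 12.7 and 11.5 TPM in control replicates 1 to 4 and at 8.91, 9.90, 12.0 and 9.80 TPM in cold replicates 1 to 4. It was lower in 4 of 4 same-numbered pairs, with the groups overlapping through cold replicate 3, and its mean went from 12.0 ± 0.518 to 10.2 ± 1.32 TPM (SD, n = 4). The log2 fold change was −0.25 with the block (standard error 0.06, adjusted p = 0.0272, edgeR), 16% lower on the fitted scale, while the unblocked adjusted p was 0.63 and the exact two-sided permutation test on TPM gave p = 0.0857. The value was −0.40 within replicates 1 and 2 alone (adjusted p = 7.65e-07) and −0.12 within replicates 3 and 4 alone (adjusted p = 0.625), a difference that was not tested. With the block the call was not made by edgeR without replicate 1 (adjusted p = 0.207) or replicate 2 (0.126), by DESeq2 (0.183) or by limma (0.165).

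Ulk1, the other kinase of the pair, stood at 8.54, 7.85, 5.89 and 5.97 TPM in control replicates 1 to 4 and at 9.21, 8.24, 6.92 and 5.71 TPM in the cold ones. Its libraries were ordered by replicate number more than by temperature, since replicates 1 and 2 were above replicates 3 and 4 in both groups. The log2 fold change of 0.06 had a 95% interval from −0.07 to 0.20 with the block (adjusted p = 0.642, edgeR). Ulk1 made up 36.9% ± 4.67 of the summed Ulk1 and Ulk2 TPM in control and 42.4% ± 6.98 in cold libraries (SD, n = 4), with an exact permutation p of 0.229 between the unpaired groups. Within pairs 1 to 4 the share was higher in cold by 9.35, 5.37, 4.84 and 2.64 percentage points, and the exact paired permutation test gave p = 0.125 (two-sided), the smallest that 4 pairs allow. The scaffold Rb1cc1 (FIP200), Atg13 and Atg101, which hold the complex together, had log2 fold changes of −0.04, −0.02 and −0.13 with the block, all above an adjusted p of 0.05. Atg101 was lower in 4 of 4 pairs (52.2 ± 2.28 against 48.3 ± 3.80 TPM, SD, n = 4; adjusted p = 0.232, edgeR with the block).

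None of the 5 genes of the class III PI3-kinase complexes passed the test in either fit. Becn1, the Beclin 1 subunit shared by both complexes, stood at 53.9, 53.4, 57.9 and 57.2 TPM in control replicates 1 to 4 and at 58.5, 55.0, 55.5 and 55.2 TPM in the cold ones. The groups overlapped, replicates 1 and 2 being higher in cold and replicates 3 and 4 lower. Its log2 fold change was −0.01 with the block, with a 95% interval from −0.10 to 0.09 (adjusted p = 0.97, edgeR), among the tightest bounds of the whole set. The catalytic subunit Pik3c3 (VPS34) had a log2 fold change of 0.07 and the regulatory subunit Pik3r4 (VPS15) one of 0.05 with the block. Atg14, which directs the complex to the forming autophagosome, had a mean of 3.48 ± 0.184 TPM without and of 3.47 ± 0.206 TPM with cold exposure (SD, n = 4). Uvrag, its counterpart in the endosomal complex, had the largest positive value of the set, 0.14 with a 95% interval from 0.01 to 0.28 (adjusted p = 0.237, edgeR with the block), and was lower in 1 of 4 pairs.

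Membrane supply genes did not pass the test either. Vmp1, whose product moves lipid across the endoplasmic reticulum membrane, stood at 94.4, 94.0, 113 and 117 TPM in control replicates 1 to 4 and at 90.9, 92.4, 99.7 and 99.6 TPM in the cold ones. It was lower in 4 of 4 pairs, by more in replicates 3 and 4 than in 1 and 2, and the groups overlapped. The log2 fold change was −0.14 with the block (adjusted p = 0.0592, edgeR). The lipid-binding scaffold Wipi1 had −0.19 (adjusted p = 0.151) and its relative Wipi2 had 0.02 (adjusted p = 0.89), while the lipid transfer proteins Atg2a and Atg2b had −0.05 and 0.06 and the scramblase Atg9a had −0.02, all from the same fit. Vmp1 and Wipi1 were picked for their values.

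Of the 7 conjugation genes, 3 had negative and 4 positive changes in both fits, and none passed the test. Atg5, which joins Atg12 to form the complex that guides LC3 coupling, stood at 45.5, 40.0, 39.0 and 42.2 TPM in control replicates 1 to 4 and at 46.3, 43.6, 45.4 and 43.1 TPM in the cold ones. It was higher in cold in all pairs, the groups overlapped, and the log2 fold change was 0.08 with a 95% interval from −0.03 to 0.19 (adjusted p = 0.475, edgeR with the block). Its partner Atg12 had the opposite sign.

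Atg12 stood at 16.9, 16.9, 17.4 and 17.5 TPM in control replicates 1 to 4 and at 15.6, 16, 13.4 and 15.4 TPM in the cold ones. All 4 cold libraries were below all 4 control libraries, which gives the smallest p the exact unpaired permutation test can give here, 0.0286 (two-sided). Over all genes it did not pass, with a log2 fold change of −0.20 (standard error 0.06) and an adjusted p of 0.0622 in the blocked and 0.621 in the unblocked edgeR fit. Atg12, too, was picked for its values. Atg16l1, another part of that complex, was higher in cold in 4 of 4 pairs with a log2 fold change of 0.10 (adjusted p = 0.229, edgeR with the block), and the E2-like enzyme Atg3 was higher in 4 of 4 pairs with 0.07 (adjusted p = 0.431). The E1-like enzyme Atg7, the E2-like enzyme Atg10 and the protease Atg4b, which trims LC3, had values of 0.05, −0.02 and −0.01.

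Among LC3 and GABARAP genes, Map1lc3a fell in the blocked fit. Map1lc3a (gene 101843838), encoding LC3A, stood at 149, 143, 164 and 154 TPM in control replicates 1 to 4 and at 132, 139, 139.7 and 133 TPM in the cold ones. All 4 cold libraries were below all 4 controls, with means of 152 ± 8.79 and 136 ± 4.09 TPM (SD, n = 4; exact unpaired permutation p = 0.0286, two-sided, the smallest possible). The log2 fold change was −0.18 with the block (standard error 0.04, 95% interval −0.27 to −0.08, adjusted p = 0.024, edgeR), 11.5% lower on the fitted scale, and the unblocked adjusted p was 0.306. The sign was the same within replicates 1 and 2 alone (−0.15, adjusted p = 0.0378) and within replicates 3 and 4 alone (−0.21, adjusted p = 0.0269), each from the blocked edgeR fit with 4 libraries. With the block the call was not made by edgeR without replicate 1 (adjusted p = 0.0939) or replicate 3 (0.115), by DESeq2 (0.181) or by limma (0.112).

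Map1lc3b, encoding the LC3B protein that is the usual readout of autophagosomes, stood at 84.2, 85.7, 104 and 106 TPM in control replicates 1 to 4 and at 76.5, 81.7, 107 and 100.5 TPM in the cold ones. Replicates 3 and 4 were above replicates 1 and 2 in both groups, and control and cold overlapped. Its log2 fold change was −0.08 with a 95% interval from −0.17 to 0.02 (adjusted p = 0.392, edgeR with the block), and it was the single member with counts that were not whole numbers, where reads can be divided with another gene, so its level is less certain.

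Gabarapl2 stood at 150.3, 132, 191 and 202.5 TPM in control replicates 1 to 4 and at 132, 132, 192 and 166 TPM in the cold ones. Gabarapl1 ran the other way across the numbers, with 47.5, 48.0, 42.9 and 42.6 TPM in control and 56.3, 54.2, 43.7 and 37.0 TPM in cold replicates 1 to 4. Both sets overlapped between the groups, and neither gene passed the test with the block, at −0.13 (adjusted p = 0.141) and 0.05 (adjusted p = 0.692) on the log2 scale in edgeR. The 4 transcripts summed to 462 ± 49.1 TPM without and to 430 ± 38.4 TPM with cold exposure (SD, n = 4), lower in 4 of 4 pairs (exact permutation p = 0.314 unpaired and 0.125 paired, the smallest that 4 pairs allow). The share of the sum held by Map1lc3a was 33.1% ± 2.08 and 31.7% ± 2.40, by Map1lc3b 20.6% ± 0.718 and 21.2% ± 1.76, by Gabarapl1 9.94% ± 1.70 and 11.3% ± 2.91 and by Gabarapl2 36.4% ± 3.42 and 35.9% ± 3.57, control first (SD, n = 4). The exact permutation p, unadjusted, was between 0.4 and 0.8 for these 4 shares unpaired and between 0.125 and 0.75 paired, the lowest being for Gabarapl1, whose share was higher in cold in 4 of 4 pairs.

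**Figure D3:**
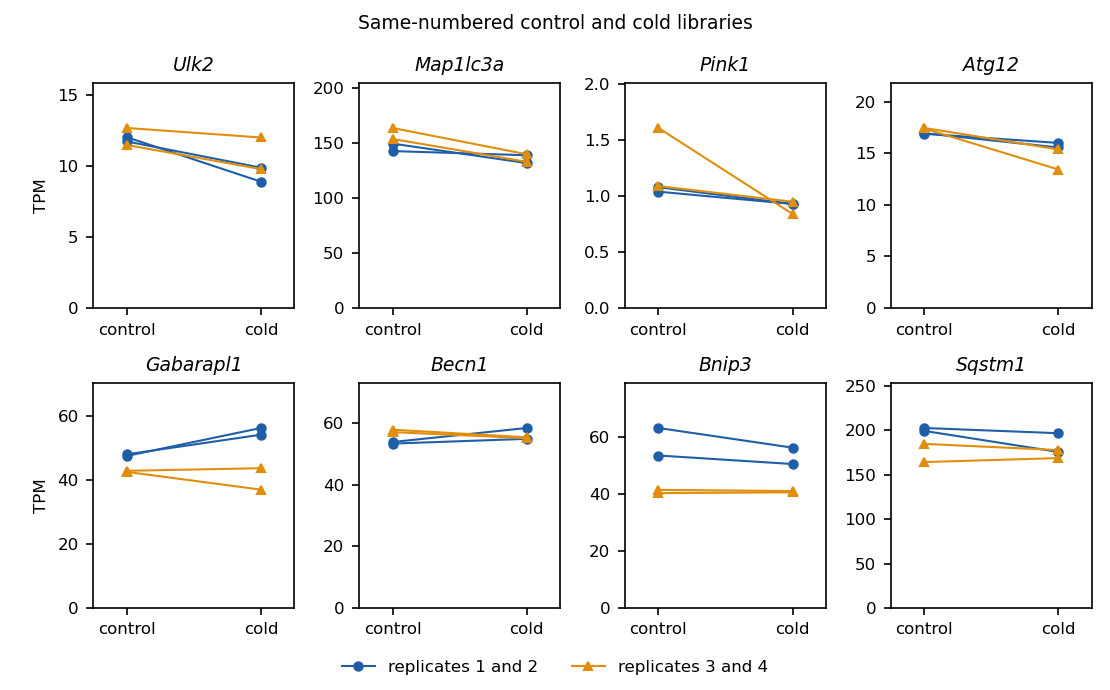
TPM of 8 genes in control and cold libraries, with a line joining libraries of the same number (blue circles for replicates 1 and 2, orange triangles for replicates 3 and 4) and axes from 0. Lines for Ulk2, Map1lc3a, Pink1 and Atg12 fall in 4 of 4 pairs, while those for Bnip3 and Gabarapl1 are spread by replicate number more than by temperature.

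None of the 4 soluble cargo receptors, which tie ubiquitin-marked cargo to LC3, passed the test. Sqstm1 stood at 203, 199, 185 and 164 TPM in control replicates 1 to 4 and at 197, 176, 178 and 169 TPM in the cold ones. The groups overlapped, and the log2 fold change was −0.08 with a 95% interval from −0.17 to 0.01 (adjusted p = 0.363, edgeR with the block). Within replicates 1 and 2 alone it was −0.17 (adjusted p = 0.00117) and within replicates 3 and 4 alone 0.00 (adjusted p = 0.993), a difference between the replicate sides that was not tested. Nbr1, Optn and Tax1bp1 had log2 fold changes of −0.03, 0.06 and 0.04.

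Mitophagy genes did not pass the test, and their 4 levels covered a wide range. Bnip3, a receptor on the outer mitochondrial membrane that hypoxia is known to induce, stood at 63.3, 53.6, 41.5 and 40.4 TPM in control replicates 1 to 4 and at 56.4, 50.6, 41.1 and 40.6 TPM in the cold ones. Bnip3l (NIX), its close relative, was ordered in reverse across the numbers, with 22.9, 23.1, 31.6 and 28.4 TPM in control and 24.8, 25.2, 30.0 and 26.8 TPM in cold replicates 1 to 4. Cold and control overlapped for both. The log2 fold changes were −0.09 for Bnip3 (95% interval −0.20 to 0.02, adjusted p = 0.415) and 0.00 for Bnip3l (95% interval −0.10 to 0.10, adjusted p = 0.999) in edgeR with the block. Fundc1, another receptor of that membrane, had −0.07 (adjusted p = 0.586).

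Pink1, the kinase that accumulates on damaged mitochondria, stood at 1.04, 1.08, 1.61 and 1.09 TPM in control replicates 1 to 4 and at 0.93, 0.93, 0.84 and 0.95 TPM in the cold ones. All 4 cold libraries were below all 4 controls (exact unpaired permutation p = 0.0286, two-sided, the smallest possible), but these levels rest on a mean of 35.6 counts per library, the fewest of any member. The log2 fold change was −0.41 with a 95% interval from −0.80 to −0.01 and an adjusted p of 0.259 in edgeR with the block. Control replicate 3 was far above the other controls, and without replicate 3 the value was −0.22 (adjusted p = 0.673). Map1lc3a, Atg12 and Pink1 were the 3 of the 39 members whose groups did not overlap, all lower in cold. Among all tested genes 2.41% were lower in that way, a smaller share, and 2.27% higher.

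At the lysosomal end, neither transcription factor and neither membrane protein passed the test. Tfeb, a master regulator of lysosomal and autophagy genes, stood at 3.07, 3.57, 2.95 and 2.82 TPM in control replicates 1 to 4 and at 4.03, 3.38, 3.01 and 2.99 TPM in the cold ones. Its log2 fold change was 0.09 with a 95% interval from −0.18 to 0.36 (adjusted p = 0.772, edgeR with the block), so the bounds are wider than for its better expressed relative Tfe3, at 0.04 with −0.05 to 0.14 (adjusted p = 0.662). Tfe3 made up 90.3% ± 1.32 of their summed TPM in control and 90.1% ± 1.89 in cold libraries (SD, n = 4). Lamp1 stood at 290.2, 287, 316 and 339.7 TPM in control replicates 1 to 4 and at 290.0, 271, 330.5 and 333 TPM in the cold ones, with the groups overlapping. Its log2 fold change was −0.03 with a 95% interval from −0.11 to 0.05 (adjusted p = 0.746, edgeR with the block), and that of Lamp2, which also takes part in chaperone-mediated autophagy, was −0.04.

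As over all genes, levels of the members mostly differed more between replicate numbers than between temperatures. The log2 TPM difference between replicates 3, 4 and replicates 1, 2 was larger in size than that between cold and control for 29 of the 39 genes, beside 71% of all tested genes with values above 0 in every library. Its median size was 0.15, against 0.06 for the cold difference, beside 0.16 and 0.07 over all tested genes, so the members stood near the background. In 12 genes all 4 libraries numbered 3 or 4 were above all 4 numbered 1 or 2 (23.5% of all tested genes), and in 6 they were all below (9.09%). The first set held Gabarapl2 (difference 0.46), Map1lc3b (0.35), Bnip3l (0.28), Vmp1, Lamp1 and Tfe3 among others, and the second Ulk1 (−0.47), Bnip3 (−0.45), Gabarapl1 (−0.31), Atg3, Atg10 and Tfeb. Some relatives stood on opposite sides (Bnip3 and Bnip3l, Gabarapl1 and Gabarapl2, Tfeb and Tfe3) and others did not: the difference was positive for both Map1lc3a and Map1lc3b, both Lamp1 and Lamp2, and both Atg2a and Atg2b. The sides were read from these libraries and are no groups of the study, so no test is given. In the controls they coincide with the 3 and 4 against 5 and 6 days at 37°C of the treatment label, which the titles do not share. They also coincide with the lower and higher fibroblast marker sums. Myogenic marker sums ran the other way, at 3139, 3177, 2346 and 2234 TPM in control and 2378, 2609, 2166 and 1967 TPM in cold replicates 1 to 4. Not every fibroblast marker followed its sum, with a difference of −0.26 for Col1a2. The part of these markers was not tested.

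Ulk2, Atg101, Uvrag, Atg2b, Atg5, Atg7, Atg12, Map1lc3a, Tax1bp1 and Pink1 were the 10 genes whose cold difference was the larger. The cold difference had opposite signs on the 2 sides in 13 of the 39 genes, beside 45% of all tested genes. Within replicates 1 and 2 alone the blocked edgeR fit put 7 of the 39 members lower and 0 higher past an adjusted p of 0.05. The lower share was above, and the higher share below, that of all genes (9.43% and 7.72%). The 7 were Ulk2, Atg101, Wipi1, Map1lc3a, Map1lc3b, Sqstm1 and Bnip3. Within replicates 3 and 4 alone the blocked fit gave Map1lc3a and Vmp1 lower and 0 higher (2.29% and 0.659% of all genes). Each of these fits used 4 libraries, so its p-values lean on variance that edgeR shares across genes. The difference between the 2 fits was not tested.

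**Figure D4:**
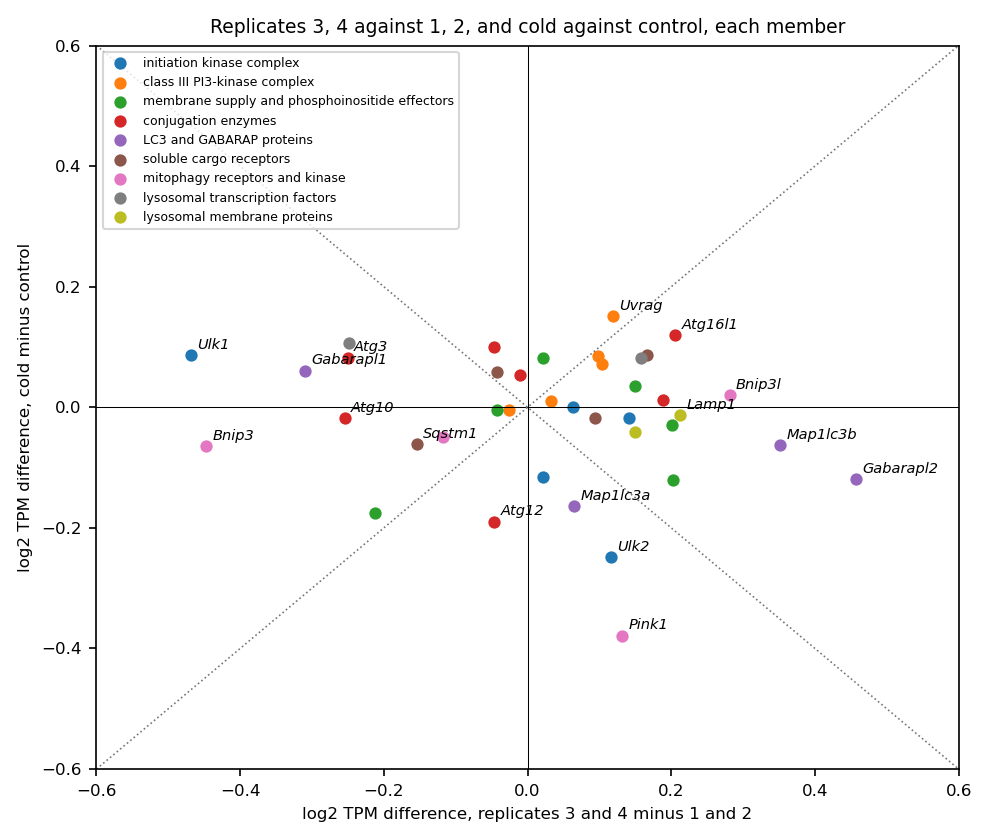
For each of the 39 genes, the log2 TPM difference of replicates 3 and 4 minus 1 and 2 (horizontal) and of cold minus control (vertical), coloured by step; dotted diagonals mark equal sizes. Points spread from −0.47 (Ulk1) to 0.46 (Gabarapl2) across, and all but a few, such as Pink1 at −0.38 and Ulk2 at −0.25, lie near 0 in height.

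The other genes of the pathway came from 4 lists drawn up by function. Without the block edgeR put 0 genes of any list past an adjusted p of 0.05, and DESeq2 put 1, Tp53inp2, lower. With it, edgeR gave 2 of 27 genes of the other autophagy machinery lower, 1 of 21 of the other selective autophagy and mitophagy genes, 0 of 20 of the mTORC1, AMPK and FOXO genes that control autophagy, and 2 of 29 lysosomal genes, and none higher, against the 4.07% and 1.26% of all genes given above. The median log2 fold changes of the lists were −0.01, −0.01, −0.05 and −0.04, beside 0.01 for all genes. Single genes ranged more widely with the block, from −0.52 (Atg9b) to 0.10 (Vamp8) in the other autophagy machinery and from −0.38 (Prkaa2) to 0.10 (Sesn3) among the genes that control autophagy, none of these 4 genes passing the test. The range was −0.47 to 0.18 among the other selective autophagy and mitophagy genes and −0.26 to 0.11 among the lysosomal genes. Atg9b, a relative of the scramblase gene Atg9a, and Calcoco2 and Phb2 are described because of their values. Atg9b stood at 0.72, 0.73, 1.36 and 2.26 TPM in control replicates 1 to 4 and at 0.48, 0.29, 1.03 and 1.81 TPM in the cold ones, on a mean of 45.5 counts per library. It was lower in 4 of 4 pairs, with the groups overlapping (adjusted p = 0.113 with and 0.999 without the block, edgeR), and at −0.98 within replicates 1 and 2 alone (adjusted p = 0.0212) and −0.33 within replicates 3 and 4 alone (adjusted p = 0.596). Calcoco2 (NDP52), a cargo receptor, and Phb2, a prohibitin of the inner mitochondrial membrane known as a mitophagy receptor, had the opposite sign, and all 4 cold libraries were above all 4 controls for both. Calcoco2 stood at 16.03, 15.95, 17.1 and 16.3 TPM in control replicates 1 to 4 and at 19.8, 18.8, 18.3 and 18.3 TPM in the cold ones, a log2 fold change of 0.18 (adjusted p = 0.0818 with and 0.491 without the block, edgeR). Phb2 stood at 397.5, 426, 398 and 385 TPM in control replicates 1 to 4 and at 462, 429.5, 443 and 428 TPM in the cold ones, a log2 fold change of 0.12 (adjusted p = 0.102 with and 0.853 without the block, edgeR). The blocked fit called Calcoco2 within replicates 1 and 2 alone (adjusted p = 0.0378) but not 3 and 4 (0.549), and Phb2 within replicates 3 and 4 alone (0.0308) but not 1 and 2 (0.314).

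Tp53inp2 (DOR), a nuclear protein that is known to recruit LC3 and that is abundant in muscle, went from 47.3 ± 4.32 to 37.9 ± 1.26 TPM (SD, n = 4) and had a log2 fold change of −0.34 (adjusted p = 0.000228, edgeR with the block) with 4 of 4 pairs lower. Smcr8, a partner of C9orf72 in a complex that acts on ULK1 signalling, had −0.20 (adjusted p = 0.0397). Calcoco1, a receptor for selective autophagy of the endoplasmic reticulum, had −0.24 (adjusted p = 0.0488) with 3 of 4 pairs lower, and was at −0.47 within replicates 1 and 2 alone (adjusted p = 1.58e-11) but at −0.04 within replicates 3 and 4 alone (adjusted p = 0.898), a difference that was not tested. Ctsa, a lysosomal carboxypeptidase, had −0.17 (adjusted p = 0.0254) and the lysosomal and exosomal tetraspanin Cd63 had −0.11 (adjusted p = 0.0479), from 1837 ± 66.9 to 1710.0 ± 45.7 TPM (SD, n = 4). These 5 were the genes of the lists past the threshold in the blocked fit, and their unblocked adjusted p ran from 0.244 to 0.881 in edgeR. Of the 5, DESeq2 called Tp53inp2 without the block (−0.34, adjusted p = 0.0249), and with it Tp53inp2 (1.74e-05) and Cd63 (0.0453) but not Smcr8 (0.303), Calcoco1 (0.187) or Ctsa (0.0534). Limma with the block called only Tp53inp2 of the 5 (adjusted p = 0.0210). Within replicates 1 and 2 alone all 5 passed the threshold in edgeR, and within replicates 3 and 4 alone Tp53inp2 did (−0.23, adjusted p = 0.00297).

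**Figure D5:**
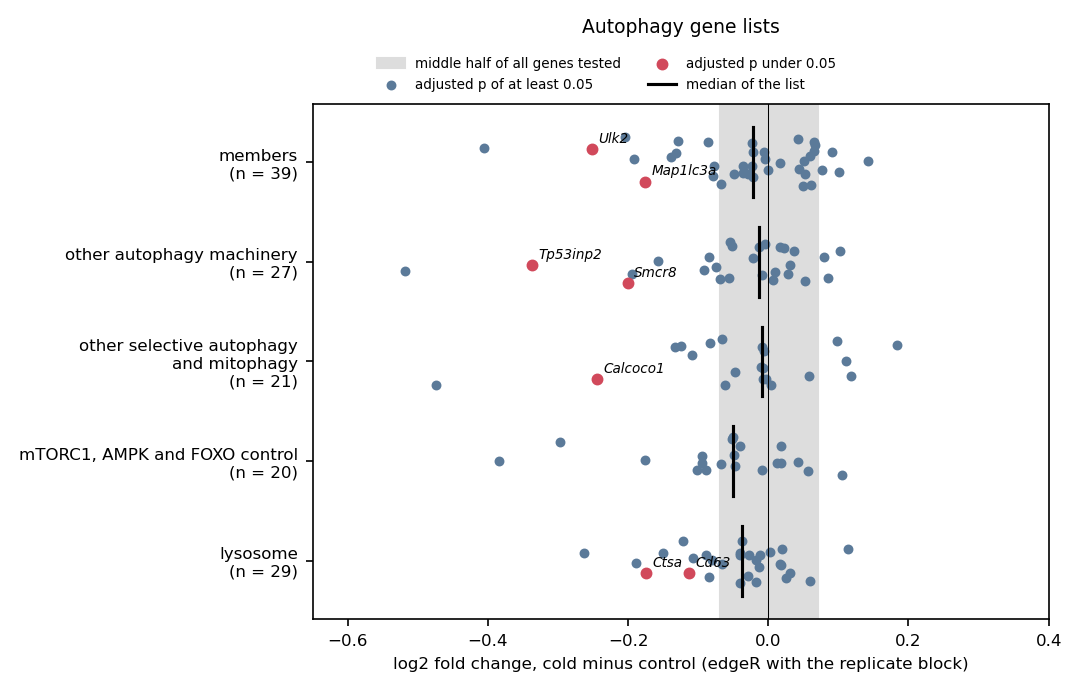
Log2 fold change of cold against control from edgeR with the replicate block for the 39 members and for 4 further lists (27, 21, 20 and 29 genes); vertical bars are list medians, the grey band holds the middle 50% of all tested genes, and red points passed an adjusted p of 0.05. Medians lie between −0.05 and −0.01, inside the band, and the 7 red points are all lower in cold.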

How the data were processed

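RNA-seq libraries of hamster SCs (4 control, 4 cold) were read from 1 deposited table. Its expected counts were estimated by the authors from paired-end reads, its TPM values are the authors' own, and the deposited signal of normalized counts, the expected counts times 1 factor per library, was not tested. HISAT and HISAT2 are named in the submitters' processing notes, and the counting program and genome build are not given in the sources used here. Depth was 16530747 to 18533801 expected counts per library, and members had means of 35.6 to 6999 counts. Precision was read from the fitted intervals, which cover the spread between libraries. The study calls its replicates biological without saying whether each was a separate animal or culture, and p-values measure the spread between these libraries.

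After rounding of the expected counts, cold was tested against control in edgeR 4.0.16 (R 4.3.3) by its quasi-likelihood F test, with filterByExpr, TMM and Benjamini-Hochberg adjustment over 12506 genes. On TPM, an exact unpaired permutation test (two-sided, 70 arrangements) was used per gene and per family share, with a paired one for the shares. A paired one was not run per gene, and with 4 pairs it could not go below 0.125. The titles share replicate numbers 1 to 4, and deviations from the group means correlated across genes at 0.609 to 0.659 between same-numbered libraries, at 0.432 to 0.591 between control and cold libraries of different numbers on one side (1 and 2, or 3 and 4) and at −0.609 to −0.553 across the sides. Much of the agreement thus follows the sides, but each library correlated best with that of its own number, so the numbers were taken to pair them and a block fit was run. Alternatives were DESeq2 1.42.0, limma 3.58.1 (log2 TPM, pseudocount 0.1, 1 or 0.01), RLE factors, library totals, 2 other count filters, single libraries or numbers left out and replicates 1, 2 or 3, 4 alone. DESeq2, RLE factors and library totals with the block were added after seeing the data. Scripts were tested on simulated data, and plots were made in Python 3.11.15 with matplotlib 3.10.9.

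The members and lists were chosen with earlier results of these data known. Genes named by rule were members past an adjusted p of 0.05 in either edgeR fit, the 3 members with the highest mean TPM, Ulk1, Becn1, Atg5, Map1lc3b, Gabarapl1, Sqstm1, Bnip3, Bnip3l, Pink1, Tfeb and Lamp1 as usual readouts, and up to 3 genes per further list by size of change among those past the threshold with the block. Other members, with their values, were added after seeing the data. Members were matched by the table's symbols, and 3 list genes by an older or variant symbol found in it. Gabarap and 3 list genes (Tollip, Ctsl and Psap) were not analysed here.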

Additional observations from a re-analysis of the deposited data

Results flagged for a closer look

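In 2 of the 28 groups of 4 libraries checked over the 14 genes named by rule, 1 library stood apart from the other 3 by Dixon's ratio of gap to range (above 0.829), where chance gives about 1 in 20 groups, or 1.4 of 28. Becn1 was at 58.5 TPM in cold replicate 1 and between 55.0 and 55.5 TPM in the other cold libraries (ratio 0.858). Pink1 was at 1.61 TPM in control replicate 3 and between 1.04 and 1.09 TPM in the other controls (ratio 0.912).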

How the results depend on the processing

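No member passed both a 2-fold change and an adjusted p under 0.05 in any of the 27 alternatives, and none was higher at an adjusted p under 0.05. The replicate block moved the number of members lower from 0 to 2 (also 2 with library totals or RLE factors under the block, both chosen after seeing the data). It was 7 under the block in replicates 1 and 2 alone and 2 in replicates 3 and 4 alone, and between 0 and 3 when 1 replicate number was left out of the block: 0 without replicate 1, 1 without replicate 2 (Map1lc3a), 1 without replicate 3 (Ulk2) and 3 without replicate 4 (Ulk2, Map1lc3a and Wipi1). It was 0 under the block with DESeq2 and with limma, and 0 in each alternative without the block. The block also moved the genes lower from 0 to 2 among the other autophagy machinery, to 1 among other selective autophagy and mitophagy and to 2 among lysosomal genes. The cause of these shifts was not tested. The adjusted p of Ulk2 ran from 7.65e-07 to 0.9999 over the 27 alternatives and from 7.65e-07 to 0.625 over the 11 with the block, and that of Map1lc3a from 0.0219 to 0.754 and from 0.0219 to 0.181, with a negative log2 fold change in all 27 for both genes. The members' median log2 fold change stayed negative throughout. Depth limits Pink1 (35.6 counts), Atg10 (61.5) and Tfeb (79.5), the members with the fewest counts per library.

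Over the 14 named genes, 37 of 378 alternative log2 fold changes had the opposite sign, 0 of them with an adjusted p under 0.05. For Becn1 these were 0.0112, 0.0110 and 0.0112 in limma at pseudocounts of 0.1, 1 and 0.01, 0.0112 in limma with the block, 0.0201 in replicates 1 and 2 alone and some of those leaving out libraries, −0.0309 to 0.0061 without and up to 0.0103 with the block. For Bnip3l they were 7.43e-05 with the block, 0.0037 with library totals and the block, 0.0200, 0.0191 and 0.0201 in the 3 limma fits, 0.0200 in limma with the block, 0.0605 in replicates 1 and 2 alone and some of those leaving out libraries, −0.0572 to 0.0729 without and, with the block, 0.0245 without replicate 3 and 0.0155 without replicate 4. In replicates 3 and 4 alone they were −0.0734 for Gabarapl1, 0.0027 for Sqstm1, 0.0102 for Bnip3 and 0.0304 for Lamp1. Leaving out libraries gave both signs for Ulk1 (−0.0534 to 0.181), Map1lc3b (−0.148 to 0.00061), Gabarapl1 (−0.0327 to 0.167), Bnip3 (−0.201 to 0.0528), Tfeb (−0.0152 to 0.178) and Lamp1 (−0.0685 to 0.0144), and, under the block without replicate 1, −0.0064 for Gabarapl1 and −0.0069 for Tfeb.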
